A study of Homo sapiens with 12 samples.

Results

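The miRNAs miR-708 and miR-335 are each made in one of the study's lines and almost absent from the other. Their 4 mature arms, hsa-miR-708-5p, hsa-miR-708-3p, hsa-miR-335-5p and hsa-miR-335-3p (written below without the species prefix), were taken by name from 1971 miRNA names listed over both lines. All 4 arms are listed for HEK293T, among 1611 names. For HCT116, 3 of the 4 are listed among 1854 names, and miR-708-3p is not one of the names listed there. The arms were chosen by their read counts in the 2 lines, near 0 in one and high in the other, so that difference is given below as a description without a test.

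The study put 3 forms of DICER into HCT116 cells, which derive from a human colorectal carcinoma, and HEK293T cells, which derive from human embryonic kidney, and counted miRNAs by AQ-seq, a small RNA library protocol built to lower ligation bias. The forms were AA, a change that the labels name but do not spell out, ΔdsRBD (deletion in the plots), which lacks the double-stranded RNA-binding domain, and wild type (WT), to which both are set here. All 6 groups are described as rescues, with 2 libraries each. The labels do not say which DICER alleles the host cells carry, how much DICER each rescue makes, or whether the lines are single clones. Nor do they say whether the 2 libraries of a group are separate cultures, and the p-values then reflect the spread among the libraries sequenced, which may be technical.

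A miRNA hairpin has an arm on each side of its loop. DROSHA frees the hairpin from the primary transcript, DICER removes the loop, and an Argonaute protein keeps one strand of the duplex, whose bases 2 to 8, the seed, pair with target mRNAs. The dsRNA-binding domain of DICER contacts the stem of the precursor. MIR335 lies in MEST, an imprinted gene expressed from the paternal copy, and miR-335 is best known from work on breast cancer metastasis. MIR708 lies in TENM4, which encodes a teneurin, a transmembrane protein of developing neurons, and miR-708 is known from mouse cells to respond to endoplasmic reticulum stress through the factor CHOP.

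The mature sequences are shown with the seed in capitals, because the seed decides which other miRNAs could share targets, and because near-identical names can share reads. They come from RefSeq (GRCh38.p14), 5′ to 3′, and all 4 arms matched by name.
miR-708-5p: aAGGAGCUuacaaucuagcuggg
miR-708-3p: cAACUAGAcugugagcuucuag
miR-335-5p: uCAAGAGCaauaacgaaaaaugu
miR-335-3p: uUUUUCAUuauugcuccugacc
miR-3139: uAGGAGCUcaacagaugccuguu
miR-28-3p: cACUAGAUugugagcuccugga
The arms of miR-708 lie on the minus strand at chr11:79402077-79402099 (5p) and chr11:79402032-79402053 (3p). Those of miR-335 lie on the plus strand at chr7:130496126-130496148 (5p) and chr7:130496162-130496183 (3p). Among the other mature sequences at hand, only miR-3139 had the seed of miR-708-5p. It held 0 to 3 reads in HEK293T libraries and 0 to 9 in HCT116 libraries. Mature miR-28-5p, which had reads in both lines, was not among those sequences, so its seed was not compared. The seeds of the other 3 arms were found in 0 other names of that set. miR-28-3p is shown because it matched miR-708-3p at 17 of 21 bases once shifted by 1 base, with 4 bases different. The arms are 22 or 23 bases long and so differ little in length. Whether the libraries captured each sequence equally was not tested, so a ratio of reads between arms need not be a ratio of molecules. The GC content was 47.8% in miR-708-5p, 45.5% in miR-708-3p, 30.4% in miR-335-5p and 36.4% in miR-335-3p.

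The MIR335 hairpin is shown because the balance of its arms shifted with ΔdsRBD; both arms are in capitals.
MIR335: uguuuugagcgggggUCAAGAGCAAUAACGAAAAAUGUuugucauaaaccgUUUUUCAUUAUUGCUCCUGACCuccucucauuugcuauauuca
It spans 94 bases at chr7:130496111-130496204 on the plus strand, with the 5p arm at bases 16 to 38 and the 3p arm at bases 52 to 73. Folded alone by ViennaRNA, it reached −40.2 kcal/mol, with 18 of the 23 bases of the 5p arm paired to the 3p arm. Its arms were 13 bases apart, fewer than in 152 of 185 tested HCT116 hairpins with a sequence (median 16, range 8 to 49). The arms of miR-708 were 23 bases apart, more than in 138 of 148 tested HEK293T hairpins with a sequence (median 16, range 8 to 47). Both hairpins were intronic in GENCODE release 29. MIR335 lay within 13 of 17 MEST transcripts, 9940 bases from the gene's start, and overlapped an exon in 0 of them. MIR708 (chr11:79402022-79402109) lay within 3 of 11 TENM4 transcripts, 38839 bases from the gene's start, also with 0 exon overlaps. An antisense RNA is annotated over MIR335, and whether the counting used strand is not stated.

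HCT116 libraries held 3157018 and 3551705 miRNA reads with AA, 824987 and 1353117 with ΔdsRBD, and 4498886 and 4056722 with WT. HEK293T libraries held 2897843 and 1440770 with AA, 1059778 and 1226813 with ΔdsRBD, and 2791656 and 3552613 with WT. Levels are given as CPM, read counts relative to library size after TMM scaling. A count of 0 allows up to 3 reads, which came to 0.755 to 3.10 CPM. The line labels were read against known markers. Of 9 colorectal epithelium markers, 5 were higher in every HCT116 library than in any HEK293T library. The other way round, miR-192-5p, miR-194-5p and miR-215-5p were higher in every HEK293T library, and miR-215-5p had 1.20 to 5.22 CPM in HCT116. Of 5 kidney line markers, miR-10a-5p, miR-10b-5p and miR-9-5p were higher in every HEK293T library, while miR-20b-5p and miR-363-3p were under 2 CPM in both lines. Of 12 markers of other cell types, 11 were listed, and they summed to 2428 to 2507 CPM with AA, 583 to 673 CPM with ΔdsRBD and 2659 to 2759 CPM with WT in HCT116. In HEK293T the same sum was 662 to 688 CPM with AA, 462 to 505 CPM with ΔdsRBD and 676 to 780 CPM with WT. Their part in the results below was not tested.

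miR-708-5p was made in HEK293T and nearly absent from HCT116. Its reads in HEK293T were 2616 and 920 with AA, 58 and 42 with ΔdsRBD, and 2257 and 2700 with WT. HCT116 libraries held 1 and 0 reads with AA, 0 and 0 with ΔdsRBD, and 1 and 1 with WT. With WT, and scaled over all 12 libraries, the level was 763 CPM in HEK293T and 0.273 CPM in HCT116, a ratio of 2797 with a 95% interval of 774 to 23098. The width of that interval comes from the 2 reads in HCT116, and it covers counting error only. The ratio depended on the scaling, and was 3342 by library totals and 877 by spike-in reads. Every HEK293T library lay far above every HCT116 library, ΔdsRBD included. In bulk RNA, fewer cells making a miRNA and less of it in each cell cannot be told apart.

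Both arms of miR-335 showed the reverse. miR-335-5p had 2991 and 3090 reads with AA, 1176 and 3099 with ΔdsRBD, and 3229 and 3428 with WT in HCT116. HEK293T held 1 and 0 reads of it with AA, 6 and 1 with ΔdsRBD, and 2 and 3 with WT. The WT levels were 909 CPM in HCT116 and 0.770 CPM in HEK293T, a ratio of 1180 (95% counting interval 505 to 3635). miR-335-3p had 1045 and 1094 reads with AA, 127 and 162 with ΔdsRBD, and 1285 and 1056 with WT in HCT116. It had 1 and 2 reads with AA, 1 and 0 with ΔdsRBD, and 0 and 3 with WT in HEK293T. The WT levels were 320 CPM in HCT116 and 0.462 CPM in HEK293T, a ratio of 692 (95% counting interval 236 to 3356). By library totals the ratios were 987 for miR-335-5p and 579 for miR-335-3p, and by spike-in reads they were 3764 and 2206. These counts in the line that lacks the miRNA lie near the limit of 3 reads, so no order of forms is read from them.

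**Figure D1:**
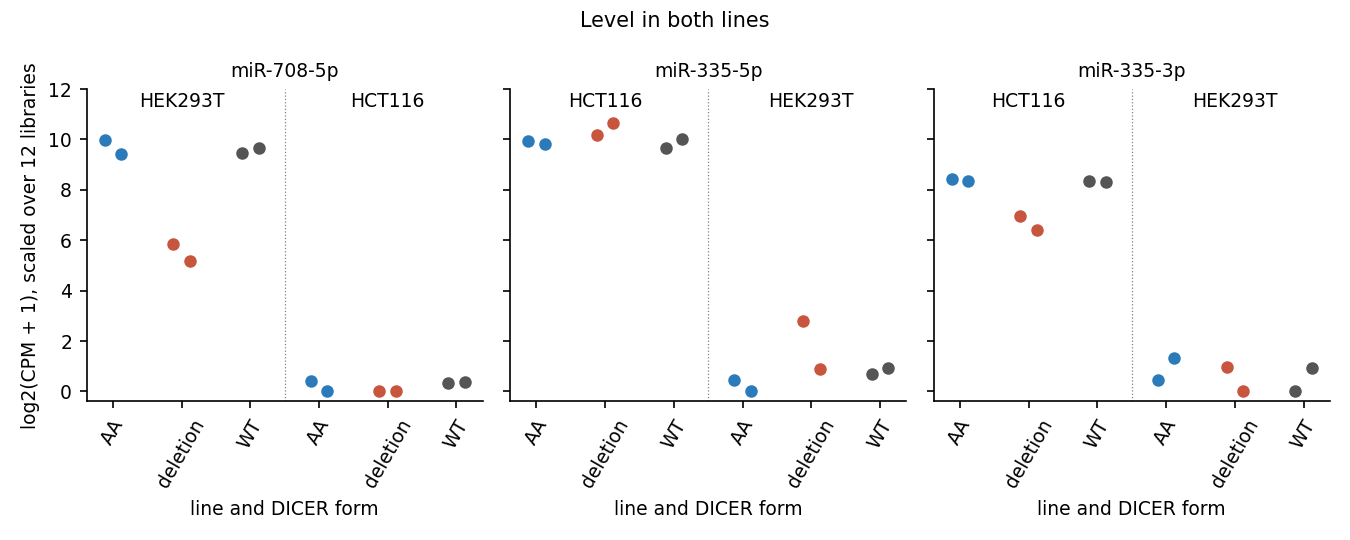
Level of miR-708-5p, miR-335-5p and miR-335-3p in every library, as log2(CPM + 1) scaled over 12 libraries, by line and DICER form, with the line that makes the miRNA left of the dotted line; each point is 1 library. In each panel the 6 libraries of the making line lie above the 6 of the other line, for which the WT levels were 0.273, 0.770 and 0.462 CPM.

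Such restriction was shared by a small group of miRNAs. It was counted over the 1494 names listed for both lines, so names listed for 1 line only, such as miR-708-3p, are left out. Of 234 such names with at least 100 CPM in WT HEK293T, 9 had less than 1 in 100 of that level in WT HCT116. By WT level these were led by miR-486-5p (7009 CPM), miR-99a-5p (2506 CPM), miR-708-5p, miR-125b-2-3p (458 CPM) and miR-3144-3p (282 CPM). Of 257 such names in WT HCT116, 16 had less than 1 in 100 of the level in WT HEK293T. They were led by let-7i-5p (10415 CPM), miR-100-5p (7688 CPM), let-7d-5p (4019 CPM), miR-130a-3p (3029 CPM) and miR-135b-5p (2954 CPM), with miR-335-5p in place 9 and miR-335-3p in place 12. In their own lines with WT, 109 of 626 tested names had a higher level than miR-708-5p and 113 of 795 a higher level than miR-335-5p.

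In HEK293T, both arms of miR-708 fell with ΔdsRBD, the 5p arm further than the 3p arm, and neither passed the test with AA by TMM. miR-708-5p, the arm with most of the reads, had 969 and 659 CPM with AA, 51.2 and 32.1 CPM with ΔdsRBD, and 800 and 789 CPM with WT. The ΔdsRBD libraries lay below the other 4, while AA and WT overlapped. The mean was 41.7 ± 13.5 CPM with ΔdsRBD and 794 ± 7.32 CPM with WT (SD, n = 2 each), 19.2-fold lower with ΔdsRBD (log2 fold change −4.26 ± 0.28 SE; edgeR quasi-likelihood adjusted p = 1.8e-07). Among the 626 tested names, 75.6% were called with ΔdsRBD, 248 lower (39.6%) and 225 higher (35.9%), so most names were called one way or the other. By size, 53 names fell further than miR-708-5p.

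miR-708-3p, the lesser arm, had 107 and 108 CPM with AA, 20.3 and 24.5 CPM with ΔdsRBD, and 110 and 142 CPM with WT. Its 3 groups did not overlap. The groups also did not overlap for 89% of names between ΔdsRBD and WT, 59.6% between AA and WT, and 87.7% between AA and ΔdsRBD. The level with ΔdsRBD was 22.4 ± 2.96 CPM against 126 ± 22.3 CPM with WT (SD, n = 2 each), 5.60-fold lower (log2 fold change −2.48 ± 0.26 SE; edgeR adjusted p = 7.6e-06). Here 130 names fell further. The ΔdsRBD values rest on 23 and 32 reads.

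With AA, miR-708-5p had a log2 fold change over WT of 0.04 ± 0.22 SE (95% interval −0.45 to 0.53; edgeR adjusted p = 0.941), and the sign of this small difference was not the same under every scaling. miR-708-3p had −0.23 ± 0.21 SE (95% interval −0.71 to 0.24; edgeR adjusted p = 0.507). Scaled to spike-in RNAs, miR-708-3p was called lower with AA by the spike-in total (−0.94; edgeR adjusted p = 0.013) and missed the threshold by spike-in size factors (−0.71; edgeR adjusted p = 0.056). By TMM the test called 21.4% of the HEK293T names with AA, 6.23% higher and 15.2% lower, and neither arm of miR-708 was among them. Set against ΔdsRBD, AA had 19.7-fold more miR-708-5p (log2 4.30 ± 0.28 SE; edgeR adjusted p = 2.4e-07) and 4.77-fold more miR-708-3p (log2 2.25 ± 0.26 SE; edgeR adjusted p = 2.2e-05). In that comparison 73% of names were called, 36.1% higher with AA and 36.9% lower. The 3 comparisons of a line share libraries, so they are not independent of each other.

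In HCT116, ΔdsRBD moved the arms of miR-335 apart relative to other miRNAs. miR-335-5p, the major arm, had 984 and 907 CPM with AA, 1214 and 1796 CPM with ΔdsRBD, and 813 and 1032 CPM with WT. The ΔdsRBD libraries were the highest of the 6 but differed from each other more than the others did, and AA and WT overlapped. Among all names, 82.5% had no overlap between ΔdsRBD and WT, 53.8% between AA and WT, and 78.4% between AA and ΔdsRBD. The mean was 1505 ± 412 CPM with ΔdsRBD and 922 ± 155 CPM with WT (SD, n = 2 each), 1.64-fold higher with ΔdsRBD by TMM (log2 fold change 0.71 ± 0.19 SE; edgeR adjusted p = 0.0076), but lower by both scalings to spike-in RNAs (−1.09 and −1.08). By TMM 62.1% of 795 names were called with ΔdsRBD, 28.1% higher and 34.1% lower, and 239 names rose further than miR-335-5p. Without ΔdsRBD replicate 2 the log2 fold change was 0.40 and missed the threshold (edgeR adjusted p = 0.051).

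miR-335-3p fell. It had 344 and 321 CPM with AA, 131 and 93.9 CPM with ΔdsRBD, and 323 and 318 CPM with WT. The ΔdsRBD libraries lay below the other 4, and those of AA and WT overlapped. The mean was 113 ± 26.3 CPM with ΔdsRBD and 321 ± 3.87 CPM with WT (SD, n = 2 each), 2.89-fold lower (log2 fold change −1.53 ± 0.18 SE; edgeR adjusted p = 2.4e-05). Of the 795 names, 195 fell further.

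With AA, the log2 fold change over WT was 0.04 ± 0.19 SE for miR-335-5p (95% interval −0.38 to 0.45; edgeR adjusted p = 0.940) and 0.05 ± 0.16 SE for miR-335-3p (95% interval −0.30 to 0.41; edgeR adjusted p = 0.897). Both signs turned under spike-in scaling. In HCT116 the test called 7.42% of names with AA, 1.26% higher and 6.16% lower, and 0 of the 2 arms of miR-335. AA had 1.59-fold less miR-335-5p than ΔdsRBD by TMM (log2 −0.67 ± 0.19 SE; edgeR adjusted p = 0.011), a sign that turned under spike-in scaling (0.50 and 0.66). That call was lost without ΔdsRBD replicate 2 (−0.36), without AA replicate 1 (−0.69) and without AA replicate 2 (−0.66). AA had 2.995-fold more miR-335-3p than ΔdsRBD (log2 1.58 ± 0.18 SE; edgeR adjusted p = 2.5e-05). In this comparison 56.5% of names were called, 29.6% higher and 26.9% lower.

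**Figure D2:**
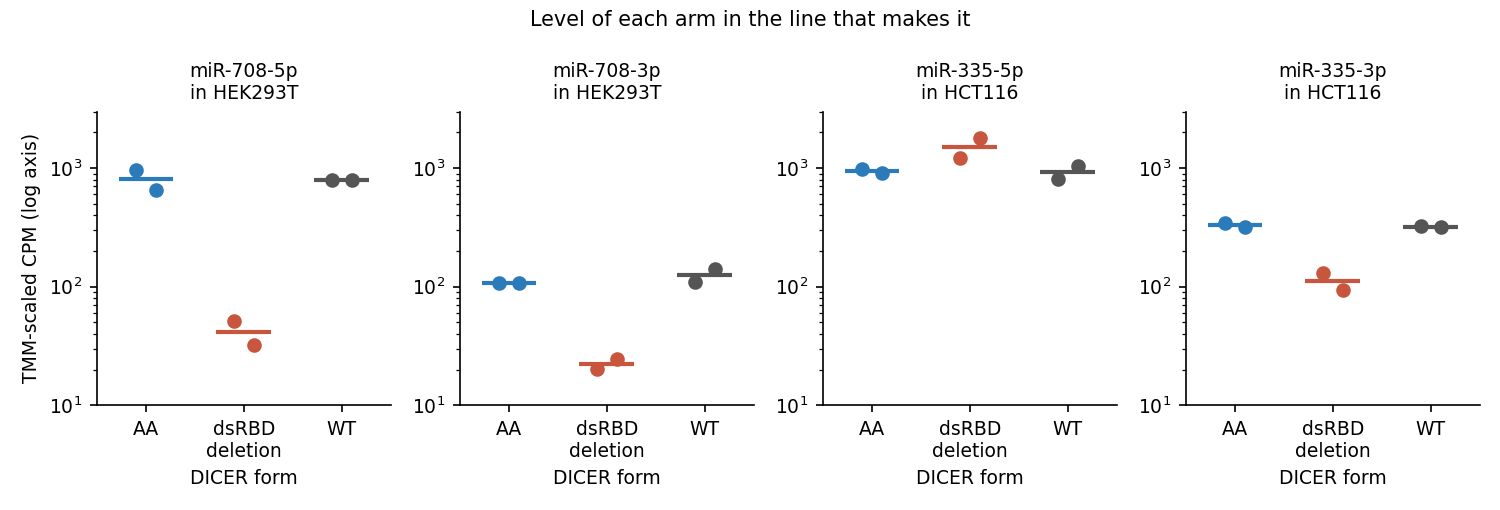
TMM-scaled CPM on a log axis for each arm in the line that makes it, by DICER form; points are libraries and bars the mean of 2. Both arms of miR-708 and miR-335-3p lie lowest with ΔdsRBD, while miR-335-5p lies highest there (1214 and 1796 CPM), an order that both spike-in scalings turn round.

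**Figure D3:**
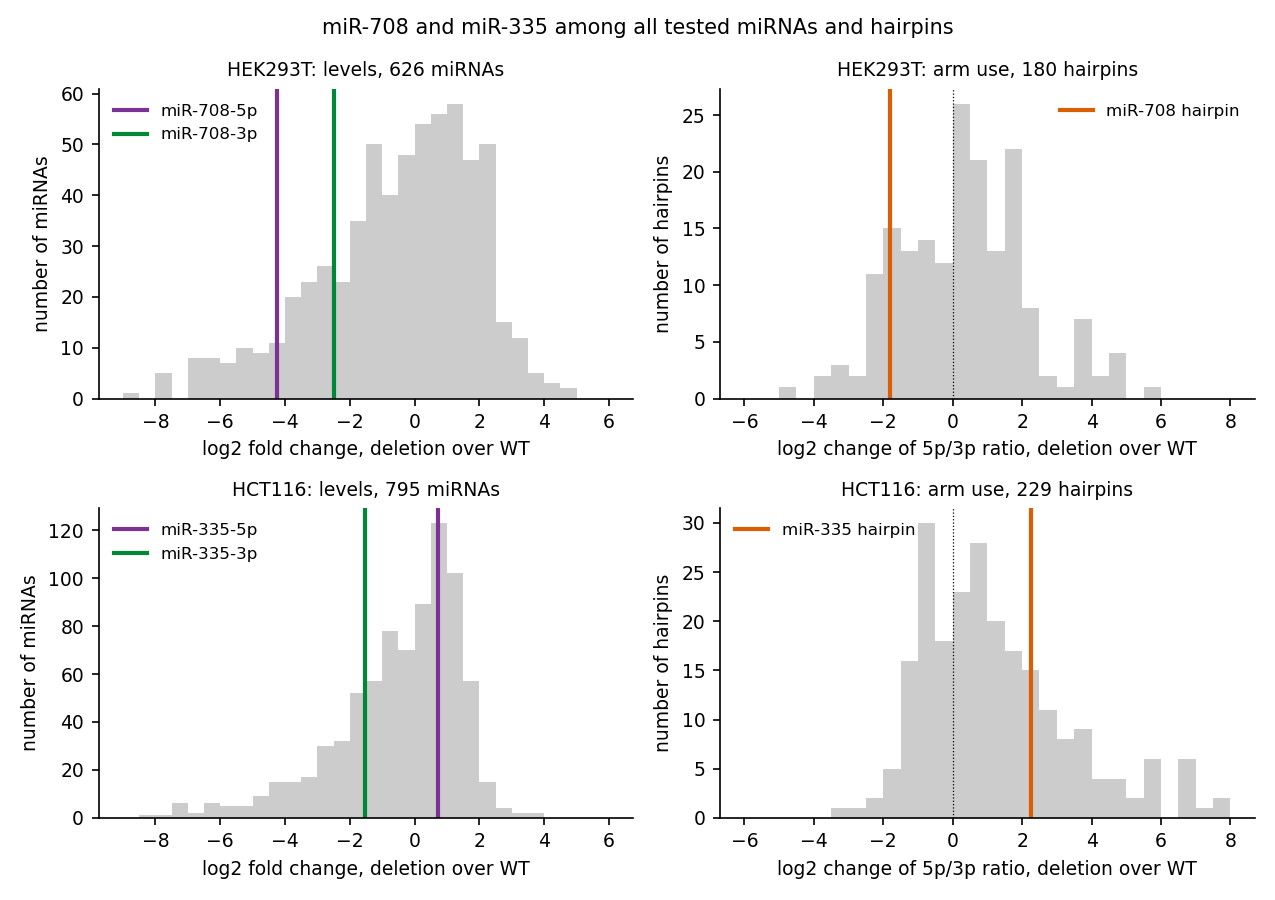
Distribution of log2 fold changes (left, all tested miRNAs) and of log2 changes in the ratio of 5p to 3p reads (right, all tested hairpins), ΔdsRBD over WT, in HEK293T and HCT116; coloured lines mark miR-708 and miR-335. miR-708-5p at −4.26 has 53 names below it, and miR-335-5p at 0.71 (TMM; below 0 by spike-in scaling) has 239 above it.

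The share of reads from each arm does not depend on library scaling, since both arms are counted in the same library. For miR-335 in HCT116 the 5p arm took 74.1% and 73.9% of the reads with AA, 90.3% and 95.03% with ΔdsRBD, and 71.5% and 76.4% with WT. The ΔdsRBD libraries lay above the other 4. The ratio of 5p to 3p reads, summed over 2 libraries, was 14.8 with ΔdsRBD and 2.84 with WT, and the fitted shift towards 5p was 4.74-fold (log2 2.24 ± 0.26 SE; edgeR interaction adjusted p = 6.4e-08). Of 229 tested hairpins, 46.7% shifted towards 5p with ΔdsRBD and 15.7% towards 3p, the median change was 0.87, and 62 hairpins shifted further towards 5p. The shift of miR-335 was next in rank to those of miR-148b (2.24) and miR-3064 (2.17). With AA the ratio was 2.84, and its log2 change over WT was −0.01 ± 0.24 SE (95% interval −0.50 to 0.49; edgeR adjusted p = 0.993). The background with AA was 8.73% towards 5p and 4.80% towards 3p. Against ΔdsRBD, AA had less 5p (log2 −2.25 ± 0.26 SE; edgeR adjusted p = 6.6e-08), where 14.4% of hairpins shifted towards 5p and 43.7% towards 3p.

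For miR-708 in HEK293T the shift went the other way. The 5p arm took 90.0% and 86.0% of the reads with AA, 71.6% and 56.8% with ΔdsRBD, and 87.9% and 84.8% with WT. It remained the major arm in every library, and the ΔdsRBD libraries lay below the other 4. The ratio of 5p to 3p reads was 1.82 with ΔdsRBD and 6.23 with WT, and the fitted shift towards 3p was 3.50-fold (log2 −1.81 ± 0.38 SE; edgeR adjusted p = 4.3e-04). Of 180 tested hairpins, 27.8% shifted towards 3p and 30% towards 5p, the median change was 0.37, and 22 hairpins shifted further towards 3p. Next to it in rank were miR-6807 (−1.89) and miR-31 (−1.79). With AA the ratio was 8.04, and the log2 change over WT was 0.24 ± 0.29 SE (95% interval −0.36 to 0.85; edgeR adjusted p = 0.642), beside 5% of hairpins called towards 5p and 5.56% towards 3p. Against ΔdsRBD, AA had more 5p (log2 2.05 ± 0.39 SE; edgeR adjusted p = 1.4e-04), where 22.8% shifted towards 5p and 30% towards 3p. The difference between the shifts of miR-335 and miR-708 was not tested, since each is measured in a different line.

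**Figure D4:**
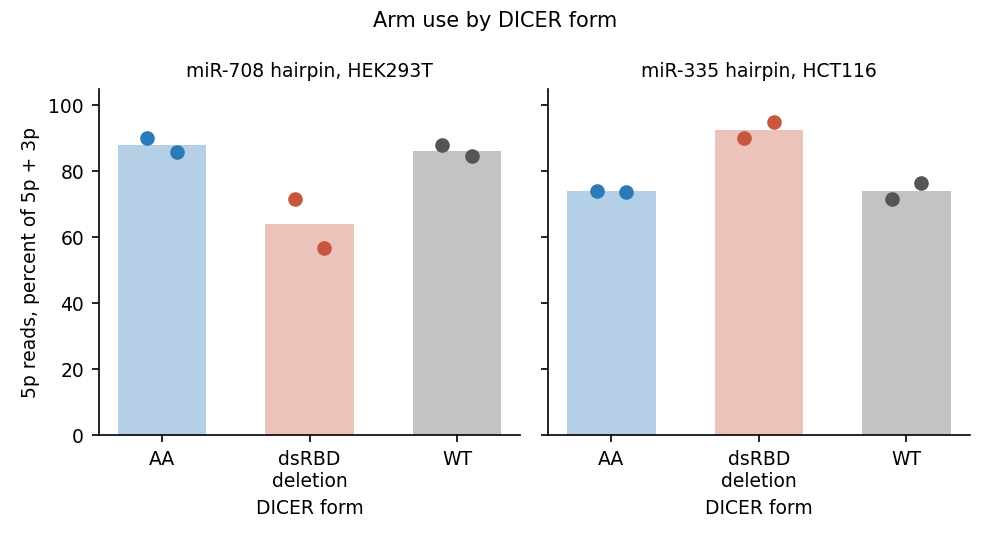
Share of 5p reads among the reads of both arms, in percent, for miR-708 in HEK293T and miR-335 in HCT116 by DICER form; points are libraries and bars the mean of 2. With ΔdsRBD the share of miR-708 is lower (71.6% and 56.8%) and that of miR-335 higher (90.3% and 95.03%) than in every AA and WT library of the line.

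CPM are relative to the other miRNAs, so the arms were also set against the 30 spike-in RNAs in each library. Neither the quantity of spike-in RNA nor the stage of its addition is given in the sources used here. Spike-ins took 1.55% and 1.52% of reads with ΔdsRBD in HCT116, against 0.364% and 0.272% with WT, and 3.32% and 3.54% with ΔdsRBD in HEK293T, against 1.20% and 1.22% with WT. With AA the spike-in share was 0.474% and 0.484% in HCT116 and 1.67% and 2.21% in HEK293T. Per 1000 spike-in reads, miR-708-5p had 53.1 and 28.3 reads with AA, 1.59 and 0.933 with ΔdsRBD, and 66.8 and 61.5 with WT. ΔdsRBD thus had 1.97% of the WT ratio and AA 63.4%. miR-708-3p had 5.89 and 4.61 reads with AA, 0.632 and 0.711 with ΔdsRBD, and 9.21 and 11.05 with WT, so ΔdsRBD had 6.63% of WT and AA 51.8%. For both arms the AA and the ΔdsRBD libraries all lay below those of WT, as they did for 73.2% of the tested HEK293T names with AA and 69% with ΔdsRBD on this measure.

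miR-335-5p had 199 and 179 reads per 1000 spike-in reads with AA, 90.8 and 148 with ΔdsRBD, and 197 and 310 with WT. ΔdsRBD had 47.2% of the WT ratio, with no overlap, and AA had 74.5% and overlapped WT. For miR-335-3p the values were 69.4 and 63.3 with AA, 9.80 and 7.75 with ΔdsRBD, and 78.2 and 95.5 with WT, or 10.1% of WT for ΔdsRBD and 76.4% for AA, without overlap for either. On this measure the libraries lay below those of WT for 84.8% of the tested HCT116 names with ΔdsRBD and 64.2% with AA. Two-sided exact permutation tests gave p = 0.667 for miR-335-5p with AA and p = 0.333 for each other comparison with WT, and 0.333 is the lower bound for groups of 2 libraries. Taken one at a time, all 30 spike-ins put each of the 4 arms below WT with ΔdsRBD, as they did 55.8% of the tested HEK293T names and 75.8% of those in HCT116. For miR-335-5p these single ratios ran from 29.3% to 87.5% of WT. With AA, 26 of the 30 spike-ins put miR-708-5p below WT, 30 miR-708-3p, 28 miR-335-5p and 27 miR-335-3p. Every measure put miR-708-5p, miR-708-3p and miR-335-3p lower with ΔdsRBD, and the direction for miR-335-5p depended on whether it was set against other miRNAs or spike-ins.

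**Figure D5:**
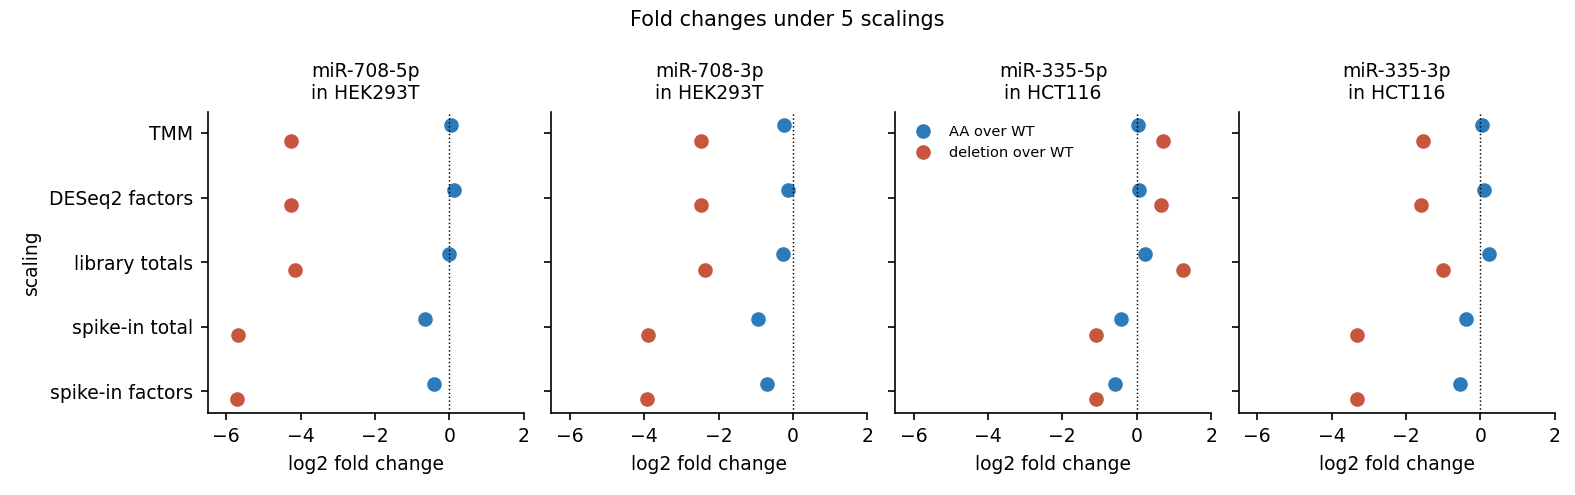
Log2 fold change of each arm for AA over WT and ΔdsRBD over WT under 5 scalings, 3 from the miRNA reads and 2 from the spike-ins. For miR-335-5p the ΔdsRBD points lie above 0 under the first 3 and at −1.08 and −1.09 under the spike-in scalings.

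The names whose levels followed each arm most closely were ranked by Pearson's r of log2(CPM + 1) over the 6 libraries of its line, which share DICER form and scaling, so high values are common. For miR-708-5p, among 246 names, these were miR-454-3p (r = 0.996), miR-30c-5p (0.996), miR-152-3p (0.995) and miR-378a-3p (0.994). miR-708-3p was closest to miR-16-2-3p (r = 0.999), miR-340-5p, miR-542-3p and miR-25-3p (0.997 each) among 247 names. In HCT116, with 263 names, miR-335-5p was closest to miR-24-1-5p (r = 0.990), miR-16-1-3p (0.969), miR-19b-3p (0.968) and miR-362-3p (0.959). miR-335-3p was closest to miR-132-3p (r = 0.998), miR-95-3p (0.997), miR-421 (0.996) and miR-378a-3p (0.995). The arms of one hairpin had no such neighbour in common in either line. Over 12 libraries and 315 names, where the line dominates, the first names were miR-16-5p, miR-582-5p, miR-218-5p and miR-423-3p for miR-708-5p. They were miR-135b-3p, miR-135b-5p, miR-330-5p and miR-29a-5p for miR-335-5p, and miR-31-5p, let-7i-5p, miR-429 and miR-130a-3p for miR-335-3p.

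miR-28 and miR-151 are the relatives of miR-708 in sequence, and unlike it they were made in both lines. Their 5 arms, miR-28-5p, miR-28-3p, miR-151a-5p, miR-151a-3p and miR-151b, gave 1 higher and 3 lower with ΔdsRBD in HEK293T (median log2 −1.71, against −0.07 over all names, of which 35.9% were higher and 39.6% lower). The count was the same in HCT116 (median −1.44, against −0.01 over all names, with 28.1% higher and 34.1% lower). The arm not called was miR-28-3p in both lines, just outside the threshold in HEK293T (−0.76; edgeR adjusted p = 0.0502). In HCT116 it was further from it (−0.26; edgeR adjusted p = 0.408). Several alternatives called miR-28-3p lower in HEK293T, among them DESeq2 size factors (−0.74). Both spike-in scalings called it lower in HEK293T (−2.22 and −2.17) and HCT116 (−2.11 and −2.09). miR-28-5p had 604 and 397 CPM with AA, 879 and 1060 CPM with ΔdsRBD, and 559 and 524 CPM with WT in HEK293T. It rose by TMM with ΔdsRBD in HEK293T (log2 0.84 ± 0.21 SE; edgeR adjusted p = 0.0041) and HCT116 (0.72 ± 0.15 SE; adjusted p = 0.0019), and both signs turned under spike-in scaling. miR-151a-3p fell with ΔdsRBD in both lines (−3.80 in HEK293T and −3.38 in HCT116), and so did miR-151a-5p (−1.97 and −1.57). The 5p share of miR-28 rose with ΔdsRBD, by log2 1.52 ± 0.31 SE in HEK293T and 0.92 ± 0.22 SE in HCT116 (edgeR adjusted p = 3.4e-04 and 9.2e-04), where that of miR-708 fell. With AA, 1 of the 5 arms was higher and 3 lower in HEK293T (median −1.35, against −0.11 over all names, with 6.23% higher and 15.2% lower). In HCT116, 0 were higher and 2 lower (median −0.48, against −0.03 over all names, with 1.26% higher and 6.16% lower). The riser in HEK293T was miR-28-3p (1.05 ± 0.32 SE; edgeR adjusted p = 0.040), with 2484 and 1419 CPM with AA and 635 and 1256 CPM with WT. miR-151a-5p and miR-151b are near-identical and may share reads.

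miR-335 was also set beside other miRNAs of imprinted loci, a list of 9 names with miR-335, miR-483, miR-675, miR-296 and miR-298. In HCT116 8 were tested, and with ΔdsRBD 1 rose, miR-335-5p itself, and 2 fell, miR-335-3p and miR-675-5p (log2 −1.75 ± 0.49 SE; edgeR adjusted p = 0.0093). The median was 0.00, against −0.01 over all names, of which 28.1% rose and 34.1% fell. The call of miR-675-5p was lost by library totals (−1.22; edgeR adjusted p = 0.0501) and without ΔdsRBD replicate 2 (−0.99; edgeR adjusted p = 0.157). miR-483-5p lay just outside the threshold by TMM (0.73; edgeR adjusted p = 0.058). It was called higher with a replicate block (0.78), on the 4 libraries of the 2 groups (0.74), by the DESeq2 test (0.70), by library totals (1.23), without WT replicate 1 (1.39) and without ΔdsRBD replicate 2 (1.03), and lower by both spike-in scalings (−0.999 and −1.01). In HEK293T 5 were tested, and with ΔdsRBD 3 rose by TMM, miR-483-5p (1.48 ± 0.36 SE), miR-483-3p (1.03 ± 0.27 SE) and miR-296-3p (0.84 ± 0.16 SE), of which miR-483-3p and miR-296-3p turned sign under spike-in scaling and miR-483-5p was no longer called (0.04 and 0.08). Over all HEK293T names 35.9% rose and 39.6% fell. miR-675-5p, made from H19, fell there (−1.70 ± 0.61 SE; edgeR adjusted p = 0.027) at 0.765 to 6.02 CPM over AA, ΔdsRBD and WT. Its ΔdsRBD libraries had 2.65 and 0.765 CPM, where the limit of 3 reads is 2.65 and 2.30 CPM. This HEK293T call was lost by the DESeq2 test (−1.71; DESeq2 adjusted p = 0.146), without WT replicate 1 (−1.59) and without ΔdsRBD replicate 2 (−1.09). With AA 0 of the 8 were called in HCT116, beside 7.42% of all names. In HEK293T miR-296-3p fell with AA (−0.97 ± 0.16 SE; edgeR adjusted p = 0.0023), beside 6.23% of all names higher and 15.2% lower.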

How the data were processed

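The deposited tables hold raw counts, 1 integer for every miRNA name and every one of 30 spike-in RNAs, in 12 libraries. Per the submitters' processing notes, cutadapt, BWA and bedtools and the builds hg38 and mm10 were used; their roles and order, the miRNA annotation, and the rules for strand and for reads that match several names are not stated in the sources used here. The members and lists were chosen with earlier results of these data known.

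Library sizes and tests exclude the spike-in reads. Within each line, names passing filterByExpr (minimum count 10) entered TMM scaling and edgeR 4.0.16's quasi-likelihood F test over all 6 libraries, two-sided, with Benjamini-Hochberg adjustment over all names at 0.05. Arm use was the edgeR interaction of arm and form blocked by library, on hairpins whose arms each reached 10 reads in 2 or more libraries. The SE is the log2 fold change divided by the square root of F. Intervals of the ratios between lines and the limit of 3 reads cover counting error only. Intervals of log2 changes were built from the SE, which includes the spread among libraries. Replicates of each group differed by more than sampling noise (chi-square per degree of freedom 10.3 to 84.4). Each library was counted as 1 sample, but this spread does not show that the libraries of a group are separate cultures. The scripts were tested on simulated data. R 4.3.3, limma 3.58.1, DESeq2 1.42.0, Python 3.11.15 and ViennaRNA 2.7.2 were used.

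Named beside the members were the listed relatives, names sharing a seed, the 4 closest names by Pearson's r, up to 5 line-restricted names of highest level in each line, and hairpins next in rank. Alternatives were 4 other scalings, no filter, DESeq2, limma for arm use, a minimum of 30 reads per arm, 4-library fits, each library left out, and a replicate block.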

Additional observations from a re-analysis of the deposited data

Results flagged for a closer look

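The form effects of the listed relatives were compared between the lines as an interaction over all 12 libraries (edgeR, 844 names tested), a comparison chosen after the data were seen. The effects in each line given here come from that joint fit, whose scaling differs from that of the fits within a line. miR-483-3p differed in its ΔdsRBD effect: the log2 effect in HEK293T minus that in HCT116 was 1.51 (edgeR adjusted p = 5.7e-04), with 1.24 ± 0.24 SE in HEK293T and −0.27 ± 0.21 SE in HCT116. miR-151a-5p differed in its AA effect by −1.58 (edgeR adjusted p = 1.5e-04), with −2.34 ± 0.17 SE in HEK293T and −0.76 ± 0.16 SE in HCT116. miR-151b, which may share reads with miR-151a-5p, differed in its AA effect by −1.81 (edgeR adjusted p = 0.0031), with −2.59 ± 0.27 SE in HEK293T and −0.79 ± 0.22 SE in HCT116. No other form effect of a listed relative passed the threshold in this comparison. The share of all tested names that passed was not counted, so whether these differences are unusual cannot be told. The arms of miR-708 and miR-335 could not be compared this way, since each is near 0 in one line.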

How the results depend on the processing

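With ΔdsRBD, miR-708-5p, miR-708-3p, miR-335-3p and both arm shifts kept their direction and call under every alternative run. The levels of miR-335-5p did not: its log2 change with ΔdsRBD was −1.09 by spike-in size factors and −1.08 by the spike-in total, 0.40 to 0.96 with 1 library left out, and 0.40 (edgeR adjusted p = 0.051) without ΔdsRBD replicate 2. For AA over ΔdsRBD it was 0.50 and 0.66 by the 2 spike-in scalings and −0.93 to −0.36 with 1 library left out. Spike-in scaling moved the median of all names, for ΔdsRBD over WT, to −1.78 and −1.77 in HCT116 (7 names higher and 598 or 604 lower) and −1.53 and −1.504 in HEK293T (60 or 64 higher and 386 or 383 lower); library totals moved it to 0.52 in HCT116 (317 higher and 198 lower). For AA over ΔdsRBD the split was 476 higher and 14 lower, or 530 and 10, in HCT116, and 322 and 99, or 289 and 131, in HEK293T. The cause was not tested.

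With AA over WT no arm was called by TMM. miR-708-3p kept its sign and was called lower by the spike-in total (−0.94; edgeR adjusted p = 0.013). The other differences changed sign: miR-335-5p was −0.59 and −0.42 by spike-ins and −0.088 to 0.24 with 1 library left out, and miR-335-3p was −0.55 and −0.39 by spike-ins. miR-708-5p was −0.023 by library totals, −0.41 and −0.66 by spike-ins, −0.067 without a filter and −0.27 to 0.29 with 1 library left out. Arm use with 1 library left out ran from −0.19 to 0.18 for miR-335, with 0.0035 without AA replicate 2, and from −0.048 to 0.51 for miR-708. By spike-in size factors and total, ΔdsRBD changed miR-28-5p by −1.07 and −1.06, miR-483-5p by −0.999 and −1.01, miR-296-5p by −1.60 and −1.60 and miR-296-3p by −1.52 and −1.51 in HCT116. In HEK293T it changed miR-28-5p by −0.61 and −0.59, miR-483-3p by −0.42 and −0.40, and miR-296-3p by −0.62 and −0.59. The other sign changes of listed relatives involved no call. With ΔdsRBD in HCT116, miR-28-3p was 0.28 and miR-483-3p 0.36 by library totals, and miR-296-5p was −0.053 without a filter. With 1 library left out miR-28-3p ran from −0.60 to 0.27, miR-483-3p from −0.33 to 0.098, miR-675-3p from −1.18 to 0.052, miR-296-5p from −0.305 to 0.42 and miR-296-3p from −0.056 to 0.60. With AA in HCT116, miR-28-5p was 0.093 and miR-675-3p 0.011 by library totals. By spike-in size factors miR-483-5p was −0.084, and by both spike-in scalings miR-483-3p was −0.52 and −0.36 and miR-675-5p −0.53 and −0.37. With 1 library left out miR-28-5p ran from −0.34 to 0.20, miR-28-3p from −0.52 to 0.35, miR-483-3p from −0.11 to 0.32 and miR-675-3p from −0.44 to 0.12. With AA in HEK293T, miR-483-5p was −0.39 and −0.63 by spike-ins, −0.051 without a filter and −0.0039 with the replicate block, and miR-483-3p was −0.42 and −0.67 by spike-ins and −0.048 without a filter. With 1 library left out miR-28-5p ran from −0.45 to 0.16, miR-483-5p from −0.41 to 0.31 and miR-483-3p from −0.14 to 0.35.

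Calls with AA over WT in HCT116 numbered 59 (10 higher, 49 lower), against 272 (2, 270) and 186 (5, 181) by spike-ins, 45 (22, 23) by library totals and 15 to 88 with 1 library left out. In HEK293T there were 134 (39, 95), against 198 (8, 190) and 292 (2, 290) by spike-ins and 69 to 128 with 1 library left out. The lowest counts were 15 without AA replicate 1 in HCT116 and 69 without AA replicate 2 in HEK293T. For arm use with AA, edgeR called 31 hairpins in HCT116 (17 to 38 with 1 library left out) and 19 in HEK293T (13 to 22), limma 2 and 3, and limma with a replicate block 0 and 0, with 41 and 28 at an unadjusted p under 0.05. Equal replicate numbers did not pair the libraries (correlations of deviations −0.10 to 0.15); with the replicate block the ΔdsRBD change was −4.29 for miR-708-5p and 0.70 for miR-335-5p. Crossing the numbers for AA over WT in HCT116, chosen after seeing the data, gave 124 calls (35 higher, 89 lower). The WT ratios between the lines were 877 for miR-708-5p, 3764 for miR-335-5p and 2206 for miR-335-3p by spike-in reads, against 2797, 1180 and 692 by TMM. For the listed relatives, 478 values kept direction and call, 46 gained and 17 lost a call, and 47 changed sign.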
